A study of Caenorhabditis elegans with 2 samples.

Results

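Autosomal peaks of tagged JUN-1 that lay outside protein-coding genes and their promoter windows were described in whole L4 larvae of Caenorhabditis elegans. A peak was taken when its summit, the position of highest signal, lay on chromosomes I to V, outside every protein-coding gene and outside every promoter window, which reached from 1000 bp before a protein-coding transcript start to 200 bp past it. Of 13085 peaks in the list drawn jointly from both replicates, 10379 were autosomal, 1957 met this rule and 84 of those were dropped because a tRNA, snRNA, snoRNA or miRNA gene lay within 250 bp. The remaining 1873 distal intergenic peaks made up 14.3% of the joint list and 18.0% of its autosomal peaks. The rule used position alone, and neither signal nor sequence entered it. It set no distance from the end of a gene, so a member can lie just past one. The shortest gap between protein-coding genes that held a member was 26 bp, and 350 bp for a member past the reproducibility threshold.

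The samples were 2 biological replicates of a single group, immunoprecipitated from strain OP234 (unc-119(ed3) III; wgIs234), which carries an integrated eGFP-tagged jun-1 transgene on an unc-119 mutant background. Both sexes were pooled at the L4 stage, the last larval stage, with no treatment labelled and no other genotype. The target is labelled jun-1, and neither the promoter, the copy number nor the insertion site of the transgene is stated in the labels. Signals came from whole animals, so a site used in a few cells and a site weakly used in many cannot be told apart. Read depth was unknown, because the lists give no read counts. A signal is the authors' value for a peak, on a scale of its own in each list. The replicate and joint lists were made as input to a reproducibility step and hold background regions beside peaks, and the 899 strongest peaks of the joint list passed the authors' reproducibility threshold.

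JUN-1 is the nematode relative of JUN, a basic leucine zipper (bZIP) protein that pairs with FOS-type partners as the transcription factor AP-1. In animals from worms to mammals AP-1 binds short palindromic sites and serves in responses to stress, in cell invasion and in proliferation. Distal regulatory sites are often stretches of open chromatin away from a promoter, and some of them act as enhancers on a gene further along the chromosome. The gene with the nearest start is given below as a landmark, and which gene a site acts on was not measured.

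Of the 25 strongest distal sites, 14 held the GA repeat, 22 were above the members' median G+C of 37.6%, 2 were neither, and 1 held an AP-1 site. The DNA 50 bp to either side of the summit is shown for 5 of the 6 strongest members and for the pair that was neither, to let both kinds be seen, and it is taken from the RefSeq WBcel235 assembly (the ce11 build), plus strand, 5′ to 3′. The windows were chrV:1151465-1151565 (nearest start cmd-1), chrV:6000497-6000597 (fos-1), chrII:2974029-2974129 (nhr-88), chrIV:2219633-2219733 (T04C4.3), chrV:20778382-20778482 (hif-1), chrIV:13919375-13919475 (Y37A1A.2) and chrIV:14594428-14594528 (irld-18). Capitals mark the GA repeat, GAGAGA on either strand, and the E-box CACGTG. The cmd-1, Y37A1A.2 and irld-18 windows held no such match.
cmd-1: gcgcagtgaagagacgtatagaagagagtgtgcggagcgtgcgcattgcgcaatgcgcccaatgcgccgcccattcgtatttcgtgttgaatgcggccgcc
fos-1: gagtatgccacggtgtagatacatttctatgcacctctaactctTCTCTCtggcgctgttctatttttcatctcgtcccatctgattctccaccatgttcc
nhr-88: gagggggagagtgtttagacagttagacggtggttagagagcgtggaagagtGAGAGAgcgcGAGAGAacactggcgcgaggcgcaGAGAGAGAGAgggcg
T04C4.3: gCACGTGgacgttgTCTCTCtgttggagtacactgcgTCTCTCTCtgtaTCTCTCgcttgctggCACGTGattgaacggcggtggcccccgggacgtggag
hif-1: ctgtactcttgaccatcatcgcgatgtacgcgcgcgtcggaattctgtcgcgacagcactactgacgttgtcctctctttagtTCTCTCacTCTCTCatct
Y37A1A.2: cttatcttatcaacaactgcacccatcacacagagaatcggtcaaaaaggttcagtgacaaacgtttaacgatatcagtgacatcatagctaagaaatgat
irld-18: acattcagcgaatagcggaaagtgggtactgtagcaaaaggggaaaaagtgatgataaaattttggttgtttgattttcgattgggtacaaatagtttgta

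Another 3 windows are shown because they held TGANTCA, the pattern counted here as the AP-1 site, or the E-box among the strongest members. N stands for any base, and the matches were TGAATCA at din-1 and TGATTCA at rho-1, with A or T at the centre. They lay at chrII:11635807-11635907 (din-1), chrIV:16490132-16490232 (rho-1) and chrIII:12583638-12583738 (aakg-1). Capitals mark the AP-1 site, the GA repeat and the E-box on either strand. All of these windows also held a GA repeat.
din-1: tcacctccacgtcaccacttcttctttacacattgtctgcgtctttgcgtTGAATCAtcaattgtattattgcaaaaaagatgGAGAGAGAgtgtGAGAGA
rho-1: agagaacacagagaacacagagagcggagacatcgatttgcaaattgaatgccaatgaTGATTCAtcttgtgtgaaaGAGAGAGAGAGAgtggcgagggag
aakg-1: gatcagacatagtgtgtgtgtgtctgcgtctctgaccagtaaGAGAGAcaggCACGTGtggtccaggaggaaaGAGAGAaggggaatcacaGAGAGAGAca

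A small minority of the distal peaks passed the reproducibility threshold. Of the 1873 members, 119 (6.35%, 95% exact binomial interval 5.29% to 7.55%) were on the threshold list, beside a background of 6.87% over the whole joint list and 6.80% over its autosomal peaks, so that their share was near the background. The corresponding counts were 437 of 4147 autosomal promoter summits (10.5%), 129 of 4275 autosomal gene-body summits outside promoter windows (3.02%) and 59 of 664 distal summits on chromosome X (8.89%). Intervals cover counting error over peaks only, and no test across peaks was made, since peaks of a list share libraries and are not replicates of a condition. The median signal was 21.9 in the members, against 23.2 at promoters, 20.8 in gene bodies and 21.8 over the joint list. The middle 50% of members lay between 18.8 and 28.4, and the strongest reached 218. Nearly all members (1872) were 376 bp wide in the list, and the exception, which was narrower, was the strongest member, upstream of cmd-1. Of all members 212 (11.3%) overlapped another peak of the list, as did 11.7% of all joint peaks, so neighbouring members are not always separate sites. On the threshold list 21 of the 119 members (17.6%) overlapped another joint peak.

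Members on the threshold list were matched in both replicates in a larger share than the others, and the share of the others depended on the match distance. A summit within 100 bp was present in the replicate 1 list for 64.8% of members and in the replicate 2 list for 69.0%, and in both for 752 (40.1%, 37.9% to 42.4%). The share in both was 113 of 119 for threshold members and 639 of 1754 (36.4%) for the others, and 118 members (6.30%) matched neither list. Within 200 bp it was 118 of 119 and 887 of 1754 (50.6%), and within 250 bp, a distance added after the values were seen, 118 of 119 and 969 of 1754 (55.2%). Along the ranking by joint signal, both replicates held 24 of the 25 strongest members, 77.3% of ranks 120 to 300 and 14.9% of ranks 1201 to 1873. The joint list was drawn from both replicates, and the threshold itself selects peaks by reproducibility. The larger matched share on the threshold list is therefore no independent result, and these shares are a description of the lists. Among the 752, the replicate signals had a Spearman correlation of 0.485. Within the 113 on the threshold list it was 0.444 and within the 639 off it 0.236, and the points share libraries and the joint ranking.

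**Figure D1:**
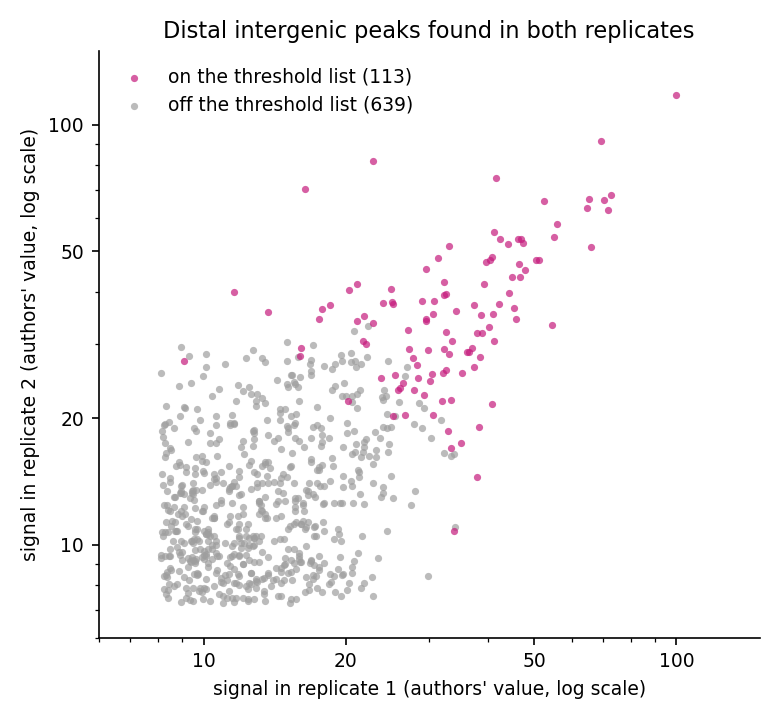
Signal in replicate 1 (x axis) and replicate 2 (y axis), both the authors' values on log scales, for the 752 distal intergenic peaks with a summit within 100 bp in both lists. The 113 points on the threshold list run up to 99.7 in replicate 1 and 118 in replicate 2. The scales need not be shared between the lists, and the Spearman correlation is 0.444 for these points and 0.236 for the 639 others.

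Of the 6 threshold members without a match in both lists, 5 had a summit within 200 bp in both. The exception, at chrV:18723491-18723866 near Y17D7C.2, had a joint signal of 57.4 and a replicate 1 summit of signal 31.7 at 209 bp, with no replicate 2 summit within 250 bp.

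The strongest distal peak lay upstream of the calmodulin gene cmd-1. At chrV:1151406-1151590 its signal was 218 in the joint list, where it ranked 31 of all peaks, with 99.7 in replicate 1 and 118 in replicate 2. Its summit was 4756 bp upstream of the nearest cmd-1 start and inside the long intergenic noncoding RNA gene linc-128. The strongest summit in a promoter window of cmd-1 had a joint signal of 21.0, so the distal peak stood well above the promoter.

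The second strongest lay upstream of fos-1, which encodes the FOS-type partner of JUN. The peak at chrV:6000359-6000734 had a joint signal of 157, with 69.3 in replicate 1 and 91.6 in replicate 2, and its summit was 3054 bp upstream of the nearest fos-1 start. Promoter windows of fos-1 held a summit of signal 43.0 at most, which ranked 1249 and was off the threshold list. The distal peak was the stronger of the pair in the joint list.

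Genes of the oxygen-sensing pathway stood beside 2 of the 10 strongest members. The peak at chrV:20778244-20778619, 1975 bp upstream of hif-1, the hypoxia-inducible transcription factor, had a joint signal of 133 with 64.6 in replicate 1 and 63.4 in replicate 2. The peak at chrV:10466590-10466965, 1739 bp upstream of egl-9, the prolyl hydroxylase that marks HIF-1 for degradation, had a joint signal of 116 with 41.6 in replicate 1 and 74.7 in replicate 2. The egl-9 summit lay in the noncoding RNA genes F22E12.10 and F22E12.9. Promoter windows held weaker summits of 31.6 at hif-1 and 33.1 at egl-9. The hif-1 summit ranked 97 in the replicate 1 list and 98 in the replicate 2 list, and the egl-9 summit 294 and 63. The pathway was noticed among the strongest members after their values were seen and was not a list of its own.

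Genes of transcription factors and co-regulators stood beside others of the 25 strongest, a grouping made after their values were seen and not tested. The peak at chrII:2973891-2974266, 2560 bp upstream of the nuclear hormone receptor gene nhr-88, had a joint signal of 142 with 72.8 in replicate 1 and 68.0 in replicate 2, against 23.6 at most in nhr-88 promoter windows. The peak at chrIII:4237693-4238068, 4662 bp upstream of the receptor gene nhr-20, had a joint signal of 96.0 with 41.2 and 55.4 in replicates 1 and 2, and no summit lay in an nhr-20 promoter window. At both receptor genes the distal peak stood above anything in a promoter window. The peak at chrV:14200107-14200482 had a joint signal of 100.3 with 47.9 and 45.1 in replicates 1 and 2, and lay 3950 bp downstream of the start of atfs-1, the bZIP factor of the mitochondrial unfolded protein response. The next stood beside strong promoter peaks. The member at chrII:11635669-11636044, upstream of din-1, a co-repressor of the receptor DAF-12, had a joint signal of 100.1 beside 75.7 in a din-1 promoter window. The member upstream of chd-7, a chromatin remodeller, had 98.1, with 44.0 in replicate 1 and 52.1 in replicate 2, beside 108 in a chd-7 promoter window.

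For 2 of the 25 strongest members the replicate match depended on the 100 bp limit. At din-1 the replicate 1 summit had signal 37.6, and replicate 2 had its strongest summit, of 70.3, at 109 bp, where it matched the neighbouring member of joint signal 54.9 instead. At chrIII:4282002-4282377, upstream of the RNA-binding protein gene sup-26, the joint signal was 130.1 with 81.9 in replicate 2, and the nearest replicate 1 summit had 22.8 while a stronger one of 69.2 lay 112 bp away. Read at 250 bp, both replicates therefore held a strong summit at these members.

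The rest of the 25 strongest had joint signals between 91.9 and 135, with 40.7 to 71.7 in replicate 1 and 43.5 to 66.4 in replicate 2. They lay near T04C4.3, F07H5.13, nlp-40 (a neuropeptide), F54F12.1, mfb-1 (an F-box protein), mrpl-51 (a mitochondrial ribosomal protein), mtm-3 (a myotubularin phosphatase), ogt-1 (O-GlcNAc transferase), casc-3, Y37A1A.2, pptr-1 (a regulatory subunit of protein phosphatase 2A), F40E3.3, irld-18, C08E8.3 and aakg-1 (a gamma subunit of AMP-activated kinase). The nlp-40 peak, at chrI:16814-17189, overlapped the end of that gene at position 16837, and its summit lay just past it. The mrpl-51 member, at chrIV:12032449-12032824 with a joint signal of 112, lay between mrpl-51 and sqst-1, which encodes the selective autophagy receptor SQST-1. The F40E3.3 peak had 6 near-identical copies of its summit window elsewhere in the genome (at least 95% identity over at least 91 bp), so its reads could have been shared among them. Over all members 13 had such a copy, 3 of them on the threshold list.

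**Figure D2:**
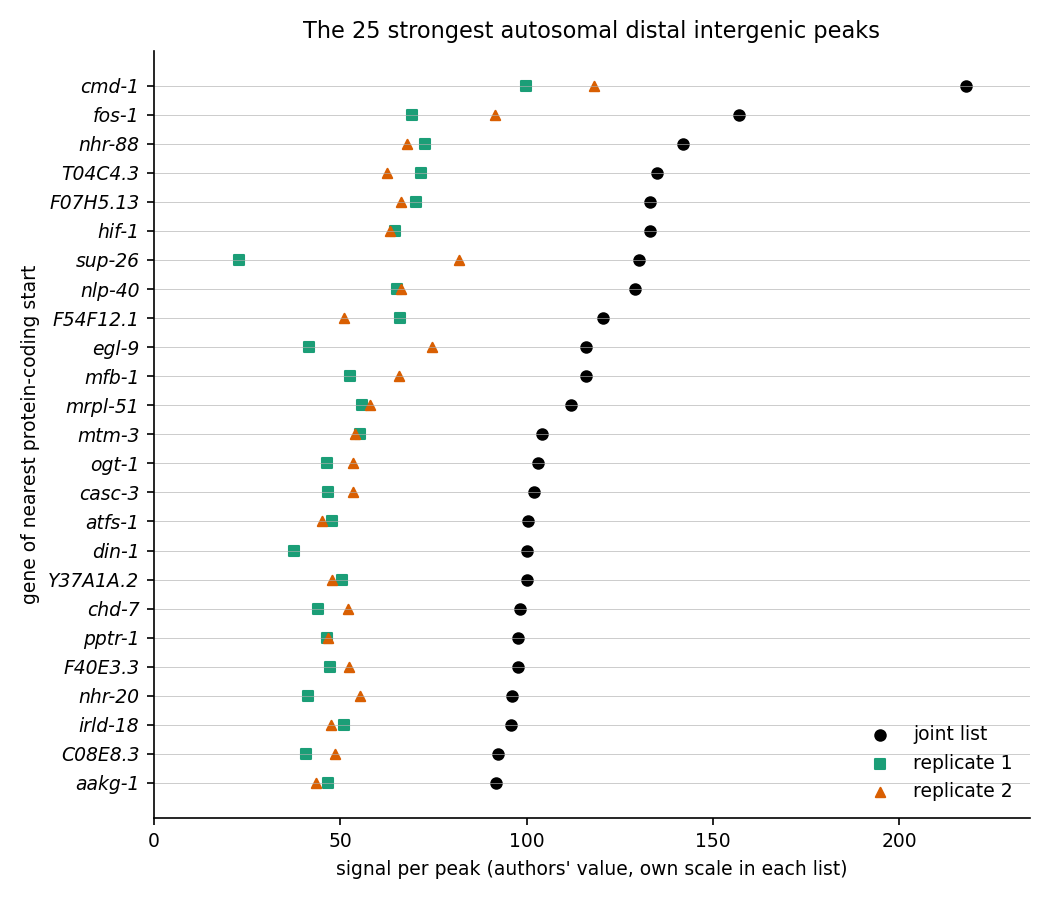
Signal (x axis, the authors' value on each list's own scale) of the 25 strongest distal intergenic peaks, named on the y axis by the gene of the nearest start, in the joint list (circles), replicate 1 (squares) and replicate 2 (triangles). Joint values run from 91.9 to 218; each replicate marker is the nearest summit within 100 bp, and din-1 has none in replicate 2.

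The distance to the nearest protein-coding start was short for most members, with a long tail. The median was 2284 bp, with quartiles of 1438 and 3629 bp and a range from 231 to 16591 bp. It was 2248 bp on the threshold list and 2560 bp among the 25 strongest, and over all members the Spearman correlation of distance with signal was -0.040 (n = 1873 peaks of the same list). The rule bounds this distance from below for a summit upstream of a start, so the lower end is set by it. Across that limit, the 76 members 1001 to 1100 bp upstream had a median signal of 21.2 with 6 on the threshold list, and the 91 autosomal summits 901 to 1000 bp upstream, outside the rule, had a median of 20.7 with 11 on it.

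Summits lay upstream of the nearest start in 1240 members (66.2%), in 75.6% of threshold members and in 21 of the 25 strongest. The rule takes out gene bodies, which lie downstream of their starts. The upstream share of the remaining sequence was not computed, so these shares have no background and show no preference. Per length of sequence in which a summit would meet the rule, 19.2 Mb or 23.3% of the autosomes, density was lower at longer distances beyond 1000 bp. There were 123 members per Mb within 1000 bp of a start, 119 at 1001 to 2000 bp, 102 at 2001 to 3000 bp, 87.7 at 3001 to 5000 bp and 65.2 beyond 5000 bp, and threshold members ran 3.62 (2 members), 7.90, 6.94, 6.23 and 2.88 per Mb over the same ranges. For threshold members the nearest range was thus sparser than those from 1001 to 5000 bp.

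**Figure D3:**
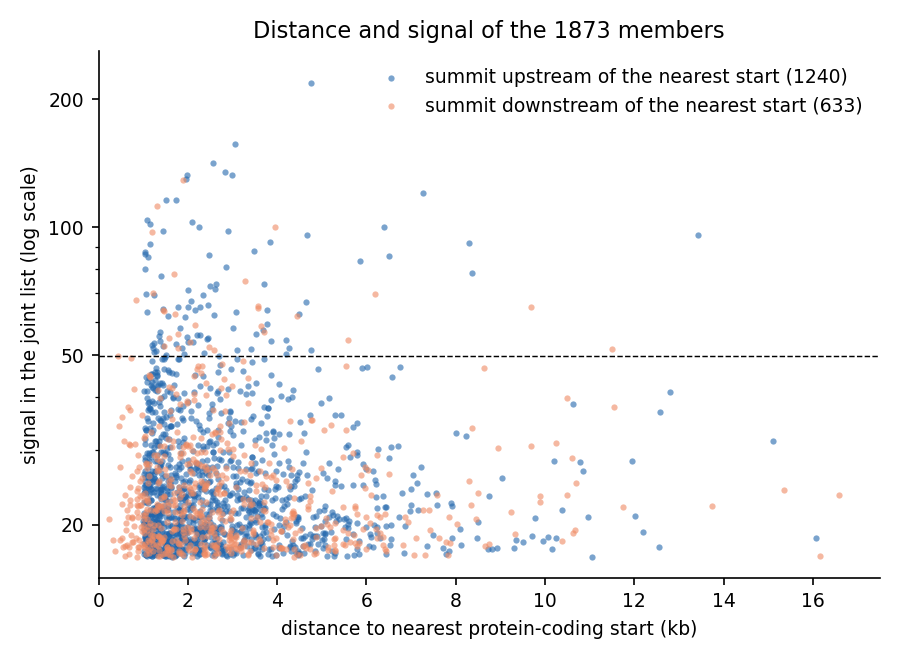
Joint signal (y axis, log scale) against distance from summit to nearest protein-coding start (x axis, kb) for all 1873 members, by side of that start. The dashed line is the lowest threshold member (49.7); strong peaks occur both near 1 kb and beyond, the irld-18 peak of signal 95.8 at 13439 bp being the farthest on the threshold list.

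The farthest strong site lay at chrIV:14594290-14594665 in a 35563 bp gap between irld-18 and dmd-6. Its summit was 13439 bp upstream of irld-18, with a joint signal of 95.8, 51.1 in replicate 1 and 47.5 in replicate 2. It was the most remote of the 119 threshold members. The 5 most remote of all members, 15109 to 16591 bp from a start, lay near C31H1.2, Y105C5A.15, aakg-1, uroc-1 and Y51H4A.8, had joint signals between 16.9 and 31.5, and were off the threshold list. Of these, the uroc-1 member had no summit in replicate 1 and the Y51H4A.8 member none in replicate 2. A separate aakg-1 member, 8287 bp upstream of that gene, was among the 25 strongest at 91.9.

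Distal peaks were sparser than promoter peaks, and their density varied with gene layout and chromosome position. Members numbered 97.3 per Mb of this sequence, against 185 per Mb in autosomal promoter windows and 105 per Mb in gene bodies, and for threshold peaks the densities were 6.18, 19.5 and 3.17 per Mb. Between genes transcribed away from each other there were 96.6 members and 6.50 threshold members per Mb, between tandem genes 105 and 7.19, and between genes transcribed toward each other 74.7 and 2.67. The central 50% of the chromosomes held 125 members per Mb against 73.0 in the outer 50%, with 7.39 against 5.14 threshold members per Mb. By chromosome, threshold members were densest on III (10.1 per Mb) and sparsest on II (4.22 per Mb). Mappability of these stretches was not analysed here.

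Some intergenic gaps, long and short, held several members. Members fell in 1265 gaps between neighbouring protein-coding genes, 360 of which held at least 2 and 27 at least 5. The fullest gap, 15313 bp on chromosome III between F54F12.1 and Y39E4B.6, held 11, of which 3 were on the threshold list with joint signals of 83.5, 120.4 and 55.9. The 7127 bp gap on chromosome V between lpin-1, a lipin phosphatase, and letm-1 held 7, of which 3 were on the threshold list with 50.7, 88.2 and 86.0. The 5061 bp gap on chromosome IV between the fatty acid desaturase genes fat-1 and fat-2 held 2, both on the threshold list, with joint signals of 74.6 (37.3 in each replicate) and 69.3 (38.5 in replicate 1 and 28.0 in replicate 2). Gaps with at least 2 threshold members numbered 5 of the 112 that held any, the others being din-1 to ghi-1 and sup-26 to R10E4.3. The threshold members near din-1 had overlapping peaks. These gaps were singled out by their counts after the values were seen.

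Genes nearest to a strong distal peak had a promoter summit in a larger share than autosomal genes in general, and most had none. Of the 115 genes nearest to a threshold member, 53 (46.1%, 36.8% to 55.6%) had any joint summit in a promoter window and 14 (12.2%) had one on the threshold list. For the 1393 genes nearest to any member the shares were 33.0% and 5.31%, and over all 17242 autosomal protein-coding genes 24.2% and 3.39%. These gene sets share members, and the shares are given as a description. The word intergenic here refers to protein-coding genes, and most members (1696, 90.5%) lay in no annotated gene of the other classes examined. The others lay in pseudogenes (74), genes annotated as ncRNA (64), lincRNA (26) and piRNA genes (10), or antisense RNA genes (5). On the threshold list were 8 of the members in ncRNA genes, 2 in lincRNA genes, 1 in pseudogenes, 1 in piRNA genes and 0 in antisense RNA genes. The threshold share over all members was 6.35%, and these small counts were not tested against it.

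By gene family, nuclear hormone receptor genes, neuropeptide and insulin genes and homeobox genes were nearest to a larger share of distal peaks than their share of autosomal genes and than their share of all autosomal peaks, with no test made. For bZIP genes the share was above that of genes and below that of peaks. Nuclear hormone receptors were the nearest start for 52 members (2.78%, against 1.43% of autosomal genes and 1.98% of all autosomal peaks), 5 of them on the threshold list, including nhr-88, nhr-20 and nhr-105 (joint signal 53.7). The 24 autosomal bZIP genes of the list were nearest for 9 members (0.481%, against 0.139% of genes and 0.694% of all autosomal peaks), 2 of them on the threshold list, fos-1 and xbp-1, while atfs-1 was outside the list. The xbp-1 peak, at chrIII:4195313-4195688 and 1680 bp downstream of the start of this factor of the unfolded protein response, had 77.5 in the joint list, 44.2 in replicate 1 and 39.7 in replicate 2, beside 154 in an xbp-1 promoter window. The xbp-1 gene ended at position 4195358, inside the distal peak, so the summit lay just past the gene. At xbp-1 the promoter peak was the stronger one. Chemoreceptor genes, 7.72% of autosomal genes, were nearest for 35 members (1.87%, against 2.10% of all autosomal peaks), none on the threshold list. Cuticle collagens were nearest for 27 members (1.44%, against 0.835% of genes and 1.47% of all autosomal peaks), neuropeptides and insulins for 22 (1.17%, against 0.621% and 0.607%), and homeobox factors for 12 (0.641%, against 0.389% and 0.395%). Ribosomal protein genes were nearest for 9 members (0.481%, against 0.452% of genes and 0.684% of all autosomal peaks). F-box genes were nearest for 6 (0.320%, against 1.77% and 0.520%), C-type lectins for 6 (0.320%, against 1.37% and 0.511%), and heat shock proteins and chaperonins for 4 (0.214%, against 0.313% and 0.462%). Threshold members among these were those at nlp-40, fbxa-30 (59.1) and rps-28 (50.3). The homeobox, collagen, lectin and chaperone lists had none. Over all members 119 of 1873 (6.35%) were on the threshold list, and 6.87% over the joint list. The family counts, including 0 of the 35 chemoreceptor members, are small and were not tested against those shares. The lists go by gene symbol, and mfb-1 (116) and mrpl-51 (112), described above, were outside the F-box and ribosomal protein lists.

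The GA repeat was frequent at distal summits, most of all at the strong ones. GAGAGA on either strand occurred within 50 bp of the summit in 306 of 1873 members (16.3%, 14.7% to 18.1%), against 6.19% of windows of the same length placed 500 bp to either side. It occurred in 53 of 119 threshold members (44.5%, 35.4% to 53.9%), against 5.46% of their flanks. The flanks, used for every motif below, were not matched in base composition. Median G+C was 37.6% at all members and 33.7% in their flanks, and 46.5% and 32.7% for threshold members. On the threshold list the share was 25.9% (21.8% to 30.2%) for promoters, 34.1% (26.0% to 43.0%) for gene bodies and 22.0% (12.3% to 34.7%) for distal peaks on X. Over all threshold peaks it was 29.6%. Over the whole joint list it was 12.4%, and 6.05% in the flanks. Without the threshold, the share was 14.6% (13.5% to 15.7%) at autosomal promoters, an interval that overlapped that of the members. It was 8.98% in autosomal gene bodies and 10.7% at distal peaks on X. On the threshold list, the interval for distal members did not overlap that for promoters or that for X and overlapped that for gene bodies. These differences were not tested.

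**Figure D4:**
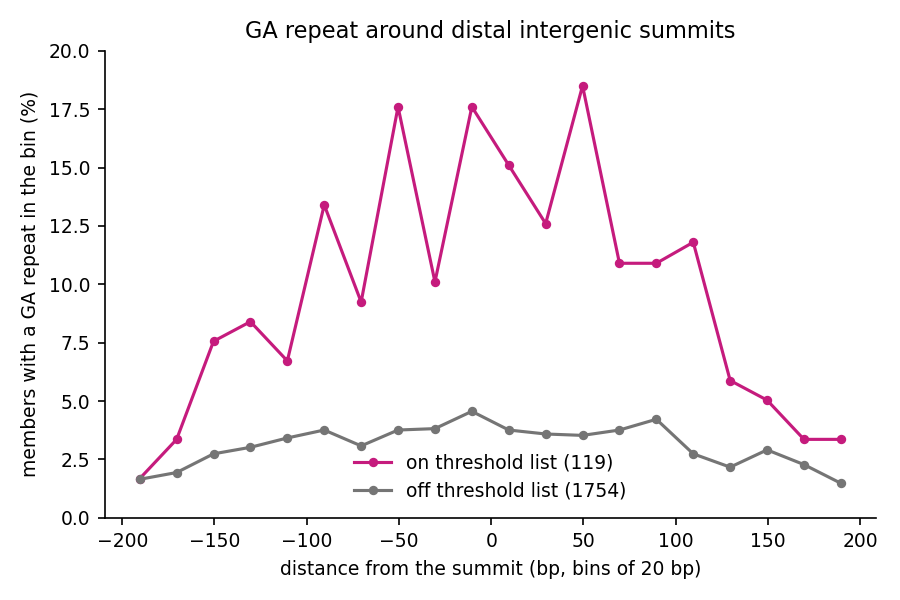
Share of members (y axis) with a GA repeat centred in each 20 bp bin (x axis, distance from the summit) for 119 members on and 1754 off the threshold list. On the threshold list the share reached 18.5% in a bin, against at most 4.56% off it, and the lines meet at the left edge (1.68% and 1.65%) and come closer at the right edge (3.36% and 1.48%).

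Both the share and the G+C content were higher in stronger members. The share was 56.0% in the 25 strongest members (34.9% to 75.6%), 40.0% in ranks 26 to 50, 42.0% in ranks 51 to 119, 26.0% in ranks 120 to 300, 22.7% in ranks 301 to 600, 13.0% in ranks 601 to 1200 and 8.92% in ranks 1201 to 1873. Median G+C of the window was 50.5% in the 25 strongest and 35.6% in the last group. Within windows of 40% to 45% G+C the repeat stood in 14 of 26 threshold members (53.8%) and 22.4% of the others, and within 45% to 50% in 12 of 20 (60.0%) and 32.0%. Above 50% G+C it stood in 24 of 44 (54.5%) and 32.5%. Between 35% and 40% the order was the other way, with 2 of 20 threshold members and 14.4% of the others, and below 35% it stood in 1 of 9 and 3.16%. In the windows printed above, the repeat was dense at nhr-88 and T04C4.3, and absent from cmd-1, the strongest.

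**Figure D5:**
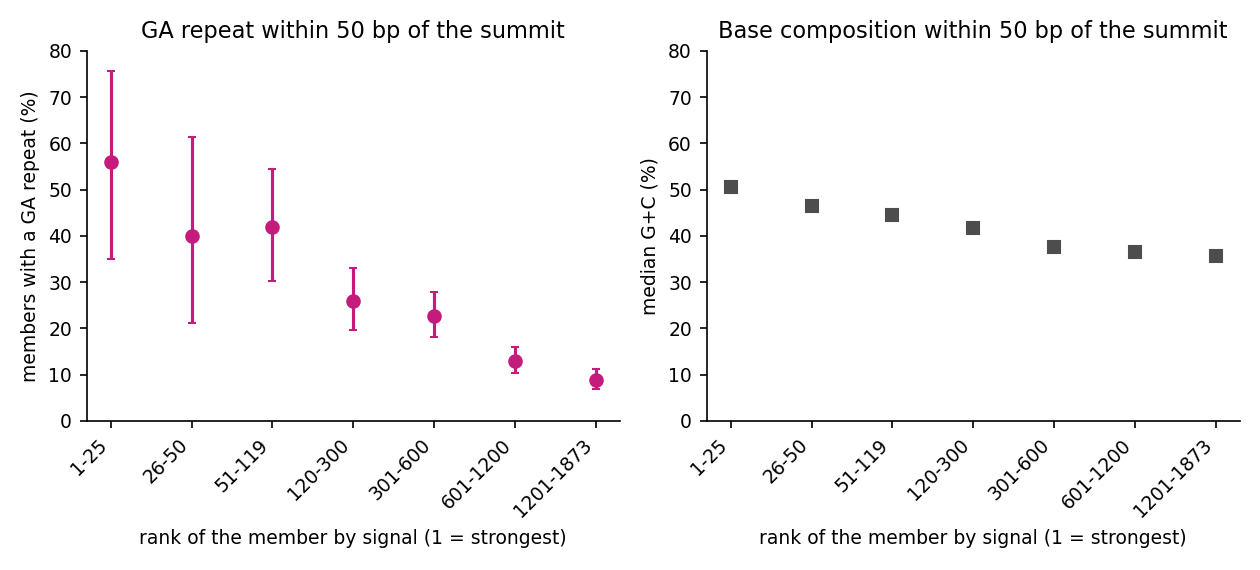
Left, share of members with a GA repeat within 50 bp of the summit (y axis, points with 95% exact binomial intervals) by rank of signal (x axis); right, median G+C of the same windows. Both are highest in the 25 strongest members (56.0% with the repeat, 50.5% G+C) and lowest in ranks 1201 to 1873 (8.92% and 35.6%).

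The AP-1 site, counted as TGANTCA with any base at its centre, was uncommon. Matches were not split by the central base, so the shares below are those of the pattern and not of a site with a given central base. TGANTCA occurred in 97 members (5.18%, 4.22% to 6.28%), against 3.47% (2.91% to 4.11%) of their flanks and 4.15% of all joint summits. It occurred in 7 threshold members (5.88%, 2.40% to 11.7%), against 2.52% of flanks, and was most frequent in ranks 120 to 300 (10.5%). The strongest carriers were at din-1 (100.1) and at rho-1, a small GTPase gene, whose peak at chrIV:16489994-16490369 had 91.6 in the joint list, 42.3 in replicate 1 and 53.4 in replicate 2. Of the 82 members with the AP-1 site and no GA repeat, 2 were on the threshold list (2.44%, 0.297% to 8.53%). With neither it was 64 of 1485 (4.31%, 3.33% to 5.47%), an interval inside the former. With the repeat alone it was 48 of 291 (16.5%, 12.4% to 21.3%), and with both 5 of 15 (33.3%, 11.8% to 61.6%), 2 intervals that overlapped. The related CRE site TGACGTCA occurred in 10 members (0.534%), against 0.881% of flanks, and in 0 of the 119 on the threshold list, where the exact interval reaches 3.05%.

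Other short motifs differed from the flanks by fewer percentage points than the GA repeat did, in either direction. The E-box CACGTG, bound by basic helix-loop-helix factors, occurred in 3.42% of members (2.64% to 4.34%) against 1.68% of flanks (1.29% to 2.15%), and in 8 threshold members (6.72%) against 1.26% of their flanks. On the threshold list it was in 4.67% of all peaks and 6.98% of gene-body peaks. The GATA site TGATAA occurred in 15.1% (13.5% to 16.8%) against 9.98% (9.04% to 11.0%), and in 16.8% of threshold members against 13.9% of their flanks. The B box of tRNA genes, GTTCGANNC, occurred in 16 members (0.854%), against 0.481% of flanks, and in 0 of the 119 on the threshold list, where the exact interval reaches 3.05%, beside 4.12% of all threshold peaks, after the rule had dropped summits near tRNA genes. CCAAT occurred in 19.4% of members and 19.6% of flanks. The E2F-like site TTCGCGC occurred in 0.801% of members against 0.614% of flanks. The C/EBP-like site ATTGCAAT occurred in 0.427% against 0.561%. The repeat CGCGCG occurred in 1.12% against 0.694%, and in 4.20% of threshold members against 1.26% of their flanks, beside 4.23% of all threshold peaks. A match is a run of letters in a window and not a site shown to be bound.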

How the data were processed

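Peak lists of 2 biological replicates, of both jointly, and of joint peaks past a reproducibility threshold were used on ce11. Per the deposited descriptions the authors called regions against a control, while aligner, caller and versions were not given in the sources used here. A deposited signal per peak (the seventh column) has no stated scale. Values of different lists are printed and plotted together, and their sizes can be compared only inside 1 list. The replicates were related through ranks. The deposited -log10 q-value per peak set no threshold here. Lists on ce10 were not used, since coordinates were not converted. Each replicate has a biosample of its own in the labels, and separate cultures are not mentioned.

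Summits were placed on WBcel235 with Ensembl release 115 annotation. Distances ran to the nearest of all protein-coding transcript starts. Replicate summits within 100 bp were matched, nearest first. Motifs were searched to 50 bp on each side of the summit. Shares carry exact binomial intervals at 95%, and no test across peaks was run. The named members were the 25 strongest, the 5 farthest from a start and up to 3 threshold members per gene list. The 10 gene lists, 10 motifs and members were chosen with earlier results of these data known. Code for positions, distances, matches and motifs was tested on simulated positions and sequences, with 500 of 500 right in each. Alternatives changed the window, the small RNA distance, annotation, copies, replicate, match distance and motif. Tools were scipy 1.17.1, pandas 2.3.3, numpy 2.4.6, BLAST+ 2.17.0 and matplotlib 3.10.9 under Python 3.11.15.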

Additional observations from a re-analysis of the deposited data

How the results depend on the processing

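Of 52 recomputed values of the 6 summary results, 36 stayed within 1.5 times the count or within the interval of the reported value. A window from 2000 bp upstream left 1241 members instead of 1873, with a median distance of 3078 bp, and one from 500 bp gave a median distance of 1798 bp. Both distances follow from the construction of the window. Leaving out a replicate, which applies the rule to the other replicate's own list, gave 3061 to 3332 members and a GA repeat in 11.4% to 14.0% of them. It gave no value for the threshold share, the match in both or the median signal, whose scale differs between lists. On the threshold list alone there were 119 members with a median signal of 64.3 and the GA repeat in 44.5%. Matching within 50 bp put 26.5% of members in both replicates and within 200 bp 53.7%, and within 250 bp, chosen after seeing the data, 58.0%. The GA repeat was in 9.93% of windows reaching 25 bp and 26.6% of windows reaching 100 bp to each side, and GAGAGAGA in 4.32% of windows of the reported width. Removing or widening the small RNA exclusion, dropping summits in or near any other annotated gene and dropping members with copies moved none of the 6 beyond those limits. No paired analysis was possible because the series has 1 group and no test. Depth is unknown, so the absence of a peak cannot be read as absence of binding.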
